A study of Rattus norvegicus with 8 samples.

Results

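Hox genes encode homeodomain transcription factors that give each level of the body axis its identity. They lie in 4 clusters, Hoxa, Hoxb, Hoxc and Hoxd, and are numbered as paralogs by their order along the cluster, so that genes with low numbers are switched on in the hindbrain and genes with higher numbers at progressively more caudal levels. In the spinal cord the genes around paralog number 10 pattern the lumbar segments, and the adult cord keeps part of this code. Polycomb complexes keep Hox genes silent anterior to their domain and Trithorax complexes keep them active, and both act through histone modifications, which is why an inhibitor of histone deacetylases raises a question about these genes. All genes whose single platform symbol is Hoxa, Hoxb, Hoxc or Hoxd with a number were taken, which gave 22 of the 39 mammalian Hox genes among 14506 genes tested: 5 of 11 in Hoxa, 7 of 10 in Hoxb, 4 of 9 in Hoxc and 6 of 9 in Hoxd. Each of the 22 was measured by 1 probe set. The other 17, among them Hoxa9, Hoxa10, Hoxc8, Hoxc10, Hoxc11, Hoxd8 and Hoxd11, were not analysed here, so that Hoxd10 alone stands for paralog number 10 and neither Hoxa10 nor Hoxc10 could be used to place the pieces along the cord.

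The samples were dorsal pieces of the ipsilateral lumbar cord from adult male Wistar rats, 14 days after transection of the fifth lumbar spinal nerve. MS-275, an inhibitor of class I histone deacetylases, was infused intrathecally at 30 nmol per day into the HDACI animals, and the vehicle animals received the solvent, DMSO in saline. Pumps were placed before the injury, all animals of both groups were injured, and no uninjured cord was measured, so that the comparison is of treatment within injured cord. The labels' treatment text describes an MS-275 pump for the vehicle arrays too, and the groups were taken from the sample titles. RNA was hybridised to Affymetrix Rat Gene 1.0 ST arrays, 4 per group and described as biological replicates, and the values are log2 signals after RMA. Array medians were close (7.95 to 7.98), and no gene of the 14506 passed adjustment (smallest adjusted p = 0.61, limma). Tissue pieces hold many cell types, and fewer cells of a type and less RNA per cell cannot be told apart.

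The start regions of 4 Hox genes to which the values below return are shown first, with every CG dinucleotide in capitals, because many Hox genes, like other targets of Polycomb, are known to have CG-rich start regions. The 250 bases before the RefSeq start were read on the gene's own strand from GRCr8. Hoxd10 and its neighbour Hoxd9 lie at chr3:80001697-80001946 and chr3:80007756-80008005 on the plus strand, and Hoxa11 and Hoxa4 at chr4:82676802-82677051 and chr4:82622303-82622552 on the minus strand.
Hoxd10: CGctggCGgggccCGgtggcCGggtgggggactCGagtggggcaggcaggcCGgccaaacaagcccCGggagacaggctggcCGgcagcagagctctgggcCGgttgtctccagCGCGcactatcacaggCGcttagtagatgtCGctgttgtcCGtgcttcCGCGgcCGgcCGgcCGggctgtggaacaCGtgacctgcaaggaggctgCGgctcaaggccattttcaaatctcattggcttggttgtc
Hoxd9: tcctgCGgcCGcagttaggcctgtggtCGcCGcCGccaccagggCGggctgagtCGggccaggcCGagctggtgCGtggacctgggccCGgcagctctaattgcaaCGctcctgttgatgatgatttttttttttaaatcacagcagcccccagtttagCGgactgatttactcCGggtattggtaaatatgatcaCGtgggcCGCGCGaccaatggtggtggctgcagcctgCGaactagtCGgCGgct
Hoxa11: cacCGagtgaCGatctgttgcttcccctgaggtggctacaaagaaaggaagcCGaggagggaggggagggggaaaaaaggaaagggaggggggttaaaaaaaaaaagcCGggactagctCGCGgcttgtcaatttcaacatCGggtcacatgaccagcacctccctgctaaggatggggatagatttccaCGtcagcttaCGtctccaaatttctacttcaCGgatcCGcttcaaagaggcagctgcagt
Hoxa4: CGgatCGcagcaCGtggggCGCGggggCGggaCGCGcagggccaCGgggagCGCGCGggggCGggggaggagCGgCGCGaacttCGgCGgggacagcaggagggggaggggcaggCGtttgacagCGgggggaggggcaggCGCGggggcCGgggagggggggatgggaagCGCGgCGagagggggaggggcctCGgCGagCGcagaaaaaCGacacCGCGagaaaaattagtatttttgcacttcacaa

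These windows hold 21 CG in Hoxd10, 20 in Hoxd9, 11 in Hoxa11 and 32 in Hoxa4, where the median of all 33469 windows of this length was 5. Windows were found for 11 of the 22 Hox genes, and their counts ran from 3 in Hoxc4 to 32 in Hoxa4 with a median of 20. Of the 11, 6 held more than 15 CG, the 75th percentile, as did 23.8% of all windows. Short motifs were searched on both strands. TGATTNAT, a site on which Hox and Pbx proteins bind together, was found in Hoxa2 alone among the 11 and in 2.82% of all windows. TTTATG, read by Cdx factors, was found in Hoxd4 alone and in 11.4% of all windows, and TATAAA in Hoxd13 alone and in 12.9%. TTTATG on the other strand, CATAAA, shares 5 letters with TATAAA. A match is a run of letters and not a measured binding site.

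In vehicle cord the brightest Hox genes carried paralog numbers 3 to 10, and those numbered 13 were dim. The highest member was Hoxa5 in Hoxa (10.94 ± 0.13, SD, n = 4), Hoxb8 in Hoxb (10.44 ± 0.11), Hoxc9 in Hoxc (9.16 ± 0.09) and Hoxd10 in Hoxd (10.91 ± 0.08), so among the measured genes the brightest of the Hoxd cluster lay at a more posterior number than that of the Hoxa cluster. Because each gene has its own probes, whose brightness is not calibrated per molecule, these orders describe signals and not amounts of RNA. As a reference for dim probes, 1105 olfactory receptor genes, which are hardly used in cord, were taken: their 95th percentile in vehicle cord was 6.93. Of the 22 Hox genes 19 lay above it (86.4%), as did 76.3% of all genes. The 3 below it were Hoxb2, Hoxb13 and Hoxd13. Being above the reference does not show that a gene is expressed. Of 11 measured transcription factors that pattern the brain, anterior to the cord, 10 were above it too, Neurod6 and Six3 among them. Whether all 11 are silent in cord was not tested. Their vehicle signals ran from 5.40 to 8.22 with a median of 7.61, and 16 of the 22 Hox genes lay above the highest of them. Most genes of the table did too: Hoxd1, the lowest of these 16 at 8.24, stood at the 43.2nd percentile of all genes. Above the median of all genes (8.60) were 13 of the 22.

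**Figure D1:**
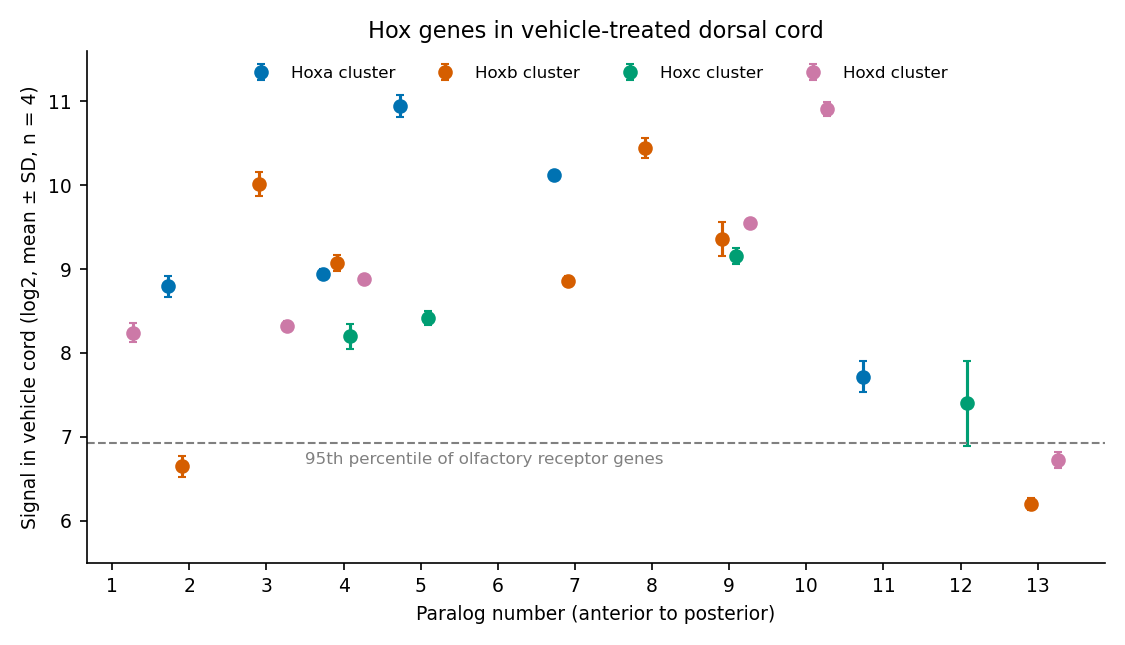
Signal of the 22 Hox genes in vehicle cord (vertical axis, log2, mean ± SD of 4 arrays) by paralog number (horizontal axis), coloured by cluster. The dashed line is the 95th percentile of olfactory receptor genes (6.93). Hoxb2, Hoxb13 and Hoxd13 lie below the line, and all 9 genes numbered 4 to 8 lie above it.

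Among the anterior genes, whose embryonic limits lie in the hindbrain, Hoxd1 (8.24 ± 0.11), Hoxa2 (8.80 ± 0.12), Hoxb2 (6.65 ± 0.13), Hoxb3 (10.01 ± 0.14) and Hoxd3 (8.32 ± 0.06) covered the range from 6.65 to 10.01 with a median of 8.32. The 9 genes numbered 4 to 8, which are used in cervical to thoracic cord, ran from 8.20 to 10.94 with a median of 8.94. Paralogs 4 were close to each other in Hoxa4 (8.94 ± 0.06), Hoxb4 (9.07 ± 0.10) and Hoxd4 (8.88 ± 0.03), and lower in Hoxc4 (8.20 ± 0.15). Hoxc5 was at 8.42 ± 0.08, Hoxa7 at 10.12 ± 0.05 and Hoxb7 at 8.86 ± 0.06. The numbers 9 and 10 ran from 9.16 to 10.91 with a median of 9.45, with Hoxb9 at 9.36 ± 0.21 and Hoxd9 at 9.54 ± 0.04. The 4 most posterior genes, which pattern the sacral and caudal levels, ran from 6.20 to 7.72: Hoxa11 (7.72 ± 0.19) and Hoxc12 (7.40 ± 0.50) were above the reference, and Hoxd13 (6.72 ± 0.09) and Hoxb13 (6.20 ± 0.08) were not. In the order of signals the neighbours Hoxa5 and Hoxd10 at the top differed by less than their SDs, and Hoxb9 differed from Hoxc9 and from Hoxd9 by less than its own SD; the order was not tested.

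The arrays differed little in most of these genes. The median SD within groups was 0.10 for the Hox genes and 0.09 for all genes, and Hoxd4, with 0.03, was among the steadiest genes of the table (2.49th percentile). The 4 widest were numbered 9 or above: Hoxc12 (SD within groups 0.64, 99.7th percentile), Hoxd10 (0.33, 98.6th), Hoxa11 (0.28, 98th) and Hoxb9 (0.18, 92.9th). Next came Hoxb2 (0.15, 87.3rd) and Hoxb8 (0.14, 83.3rd), and the posterior Hoxb13 (34.8th), Hoxd13 (38.4th) and Hoxc9 (54.5th) were not wide.

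With HDACI the median difference of the Hox genes was 0.04 on the log2 scale, against -0.01 for all genes, and the single differences ran from -0.43 in Hoxd10 to 0.16 in Hoxb7. Of the 22 genes 13 were above 0 (59.1%), as were 42.1% of all genes. At an unadjusted p under 0.05, 4 were called (18.2%, against 7.75% of all genes). Higher with HDACI were 3, Hoxa4, Hoxb7 and Hoxd3 (2.79% of all genes were called higher), and lower was 1, Hoxd10 (4.96% of all genes were called lower). The difference between these shares was not tested, and with 22 genes each call weighs heavily in it. No Hox gene reached an unadjusted p under 0.01 (1.46% of all genes did), and none passed adjustment (0% of all genes did). In 18 of the 22 the 95% confidence interval lay within a 1.3-fold change in either direction, and the 4 others were Hoxb9, Hoxd10, Hoxa11 and Hoxc12.

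**Figure D2:**
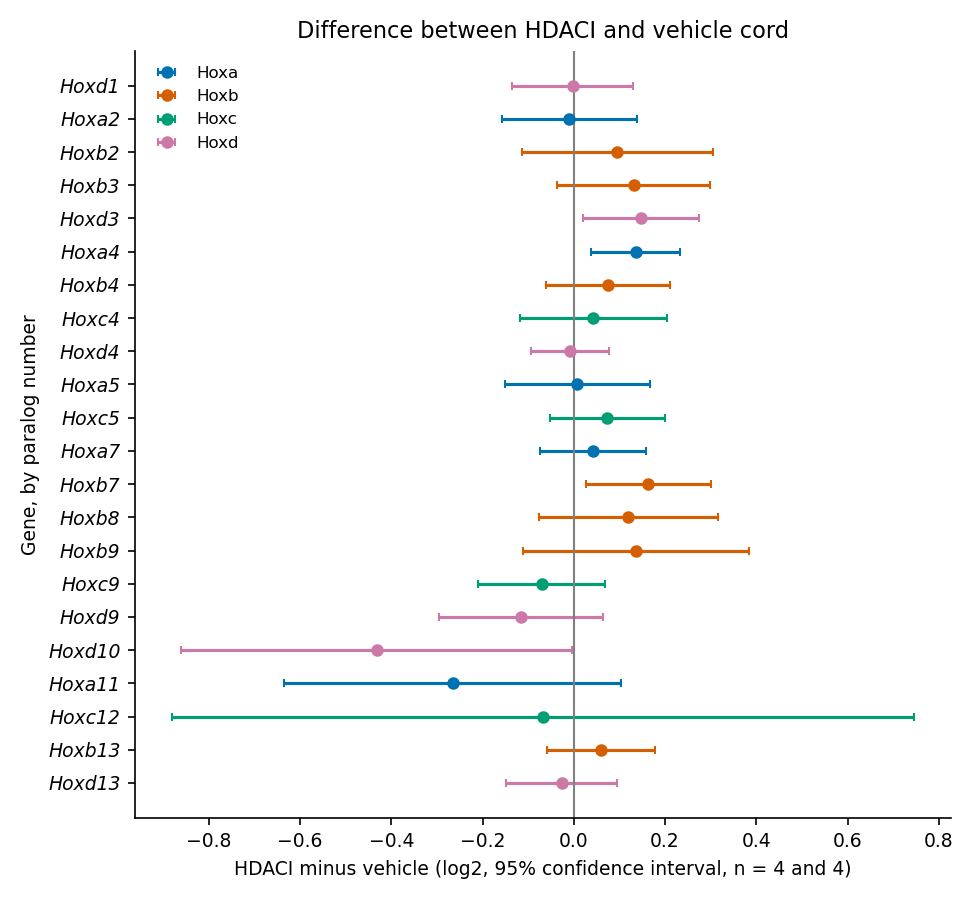
HDACI minus vehicle (horizontal axis, log2) for the 22 Hox genes in order of paralog number from top to bottom, coloured by cluster, with 95% confidence intervals of limma from 4 and 4 arrays. The intervals of Hoxd3, Hoxa4 and Hoxb7 lie above 0 and that of Hoxd10 just below it, and the intervals of Hoxd10, Hoxa11 and Hoxc12 are the widest.

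Hoxa4, a gene of upper cervical identity, was higher on every HDACI array. Its signals with HDACI were 9.06, 9.05, 9.10 and 9.10, and with vehicle 8.94, 8.86, 9.003 and 8.97. The lowest HDACI array thus stood above the highest vehicle array, by a margin narrower than the spread of the vehicle arrays. The difference was 0.14 (SE 0.04, 95% interval 0.04 to 0.23), a rise of 9.84%, with unadjusted p = 0.0114 and adjusted p = 0.61 by limma and p = 0.0286 by the exact permutation test over the 70 assignments of arrays, which is the smallest p it can give. Hoxa4 was the only Hox gene whose groups did not overlap, and 1.42% of all genes lay apart in this direction; in the other direction there was no Hox gene, and 3.6% of all genes.

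Hoxb7 and Hoxd3 were higher by similar amounts with overlapping groups. Hoxb7, a gene of thoracic levels, was at 8.999, 9.01, 8.91 and 9.18 with HDACI and at 8.86, 8.81, 8.84 and 8.94 with vehicle, so that 1 HDACI array fell below the highest vehicle array. It differed by 0.16 (SE 0.06, 95% interval 0.03 to 0.30; unadjusted p = 0.0235 and adjusted p = 0.626, limma; exact permutation p = 0.0571). Hoxd3, an anterior gene, was at 8.50, 8.36, 8.59 and 8.44 with HDACI and at 8.39, 8.34, 8.30 and 8.26 with vehicle. Here too 1 HDACI array, number 2, fell below the highest vehicle array. The difference was 0.15 (SE 0.06, 95% interval 0.02 to 0.27; unadjusted p = 0.0272 and adjusted p = 0.627, limma; exact permutation p = 0.0571). Hoxb7 lost its call without HDACI array 4, vehicle array 2 or vehicle array 3, and Hoxd3 without HDACI array 1 or 3 or vehicle array 3 or 4.

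Hoxb3 and Hoxb8 leaned the same way and did not pass. Hoxb3 was at 10.19, 10.04, 10.12 and 10.23 with HDACI and at 9.93, 9.90, 10.01 and 10.22 with vehicle, where vehicle array 4 reached the HDACI values (difference 0.13, SE 0.07; unadjusted p = 0.111, limma; exact permutation p = 0.143). Without that array Hoxb3 was called, at a difference of 0.20. Hoxb8, the brightest gene of its cluster, was at 10.66, 10.39, 10.46 and 10.74 with HDACI and at 10.42, 10.29, 10.51 and 10.54 with vehicle, with groups that overlapped (difference 0.12, SE 0.09; unadjusted p = 0.201, limma; exact permutation p = 0.286). All 7 Hoxb genes differed upward, by 0.06 to 0.16, where 42.1% of all genes were above 0, and 1 of the 7, Hoxb7, was called, where 2.79% of all genes were called higher. The mean of the Hoxb genes above the reference was 9.58 to 9.80 with HDACI and 9.41 to 9.67 with vehicle, so that the groups overlapped. It was lowest on vehicle array 2. Without that array Hoxb7 was not called and the median difference of the Hox genes was 0.01. The Hoxb mean was highest on HDACI array 4, and without this array Hoxb7 was not called either and the median difference was 0.02.

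**Figure D3:**
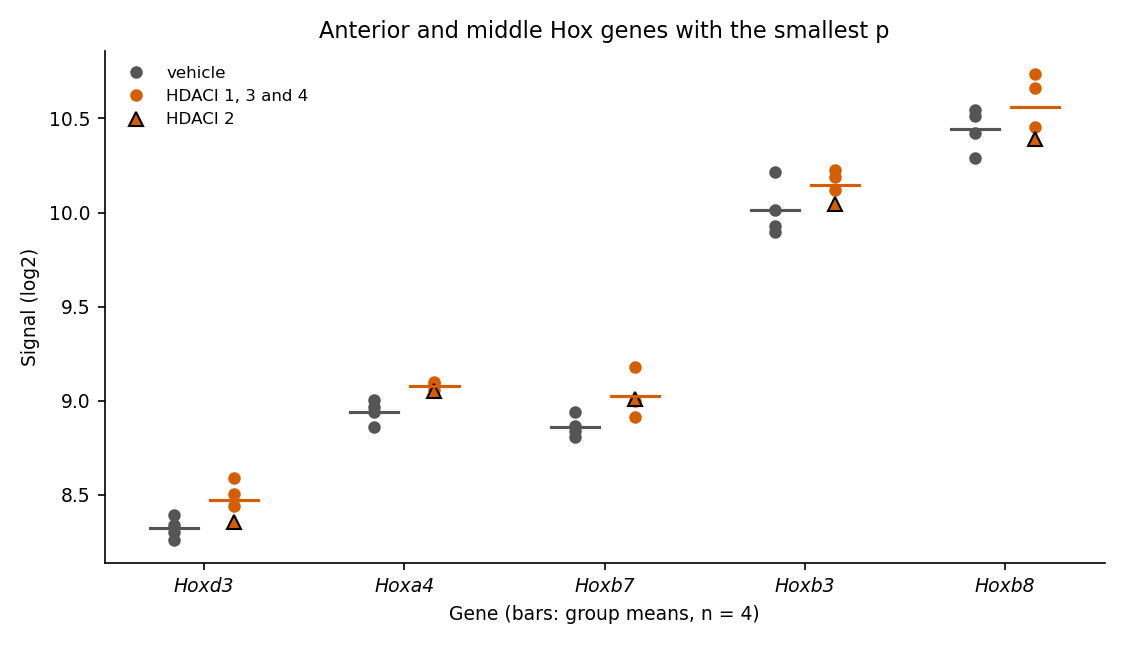
Signal (vertical axis, log2) of Hoxd3, Hoxa4, Hoxb7, Hoxb3 and Hoxb8 on each of the 4 vehicle arrays (grey) and 4 HDACI arrays (orange, array 2 as a triangle), with group means as bars. Hoxa4 alone shows all HDACI arrays above all vehicle arrays.

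Hoxd10, which is known for specifying lumbar motor neurons and is also used in the lumbar dorsal horn, had the largest difference of the set. Its signals with HDACI were 10.80, 9.80, 10.75 and 10.55, and with vehicle 10.79, 10.91, 10.98 and 10.95. HDACI array 2 stood far below the other 7, and 2 of the remaining HDACI arrays lay below all vehicle arrays while array 1 was level with the lowest of them. The difference was -0.43 (SE 0.19, 95% interval -0.86 to -0.00), with unadjusted p = 0.0488 and adjusted p = 0.64 by limma and p = 0.0571 by the exact permutation test. Without HDACI array 2 the difference shrank to -0.21 and was still called, with an SD within groups of 0.10. The call was lost without HDACI array 4 or any 1 of the vehicle arrays, and when arrays were centred on their medians.

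The other posterior genes did not pass. Hoxd9, next to Hoxd10 in the cluster, was at 9.45, 9.17, 9.55 and 9.54 with HDACI and at 9.49, 9.54, 9.58 and 9.56 with vehicle (difference -0.12, SE 0.08; unadjusted p = 0.179, limma; exact permutation p = 0.229), and the difference was -0.03 without HDACI array 2. Hoxa11, known for patterning lumbosacral levels and the limb, was at 7.67, 7.11, 7.83 and 7.19 with HDACI and at 7.75, 7.96, 7.64 and 7.52 with vehicle (difference -0.27, SE 0.16; unadjusted p = 0.139, limma; exact permutation p = 0.286). HDACI arrays 2 and 4 were below all vehicle arrays and arrays 1 and 3 were not, and without HDACI array 3 the gene was called, at -0.39. Hoxc12, shown per array because of its spread and so chosen after its values were seen, was at 8.12, 6.37, 7.65 and 7.20 with HDACI and at 6.71, 7.58, 7.91 and 7.40 with vehicle. Its arrays spanned more than 1.5 log2 units and the groups overlapped throughout (difference -0.07, 95% interval -0.88 to 0.75). On HDACI array 2 and vehicle array 1 it lay below the olfactory reference of 6.93.

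Hoxc9, which sets thoracic motor columns against limb-level ones, was at 9.13, 9.07, 8.97 and 9.18 with HDACI and at 9.12, 9.10, 9.12 and 9.29 with vehicle, and its difference was -0.07. Hoxb9 was at 9.64, 9.33, 9.38 and 9.62 with HDACI and at 9.26, 9.11, 9.50 and 9.56 with vehicle, and its difference was 0.14 with overlapping groups. Hoxa5, the brightest Hox gene, was at 10.99, 10.94, 10.84 and 11.03 with HDACI and at 10.85, 10.85, 10.93 and 11.13 with vehicle, and its difference was 0.01 (95% interval -0.15 to 0.17). The remaining members differed by -0.03 to 0.10 and none was called: Hoxd1 (-0.00), Hoxa2 (-0.01), Hoxb2 (0.10), Hoxb4 (0.08), Hoxc4 (0.04), Hoxd4 (-0.01), Hoxc5 (0.07), Hoxa7 (0.04), Hoxb13 (0.06) and Hoxd13 (-0.03). The interval of Hoxd4 was the narrowest, from -0.09 to 0.08.

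**Figure D4:**
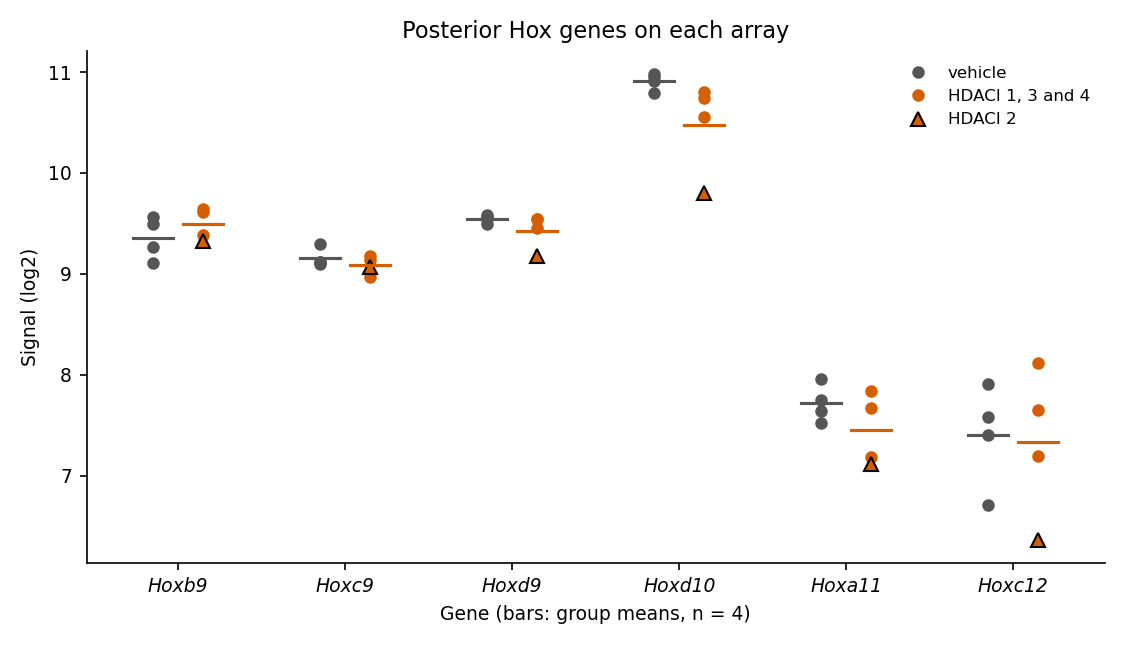
Signal (vertical axis, log2) of the 6 posterior Hox genes whose vehicle mean was above the reference. Shown are the 4 vehicle arrays (grey) and 4 HDACI arrays (orange, array 2 as a triangle), with group means as bars. HDACI array 2 is the lowest of the 8 arrays in Hoxd9, Hoxd10, Hoxa11 and Hoxc12, and Hoxb9 and Hoxc9 do not share this.

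Differences thus ran in both directions along the clusters. Of the 14 genes numbered 1 to 8, 11 were above 0, beside 42.1% of all genes. Of the 8 genes numbered 9 to 13, 2 were, both of them in Hoxb. The other 6 posterior genes, of Hoxa, Hoxc and Hoxd, were below 0. Setting the 2 aside follows their direction, so that this is the same count and no separate support. They ran from -0.43 to -0.03, and 8400 of the 14506 genes were below 0 too. Hoxd13, 1 of the 6, was below the olfactory reference. Called lower was 1 of the 6, Hoxd10, beside 4.96% of all genes. On each array, the mean of the 9 genes numbered 4 to 8 was taken from the mean of the 6 posterior genes above the reference. These were Hoxb9, Hoxc9, Hoxd9, Hoxd10, Hoxa11 and Hoxc12, so that Hoxb9 was included here and Hoxd13 was not. This posterior minus middle difference was -0.24, -0.87, -0.34 and -0.60 with HDACI and -0.44, -0.21, -0.24 and -0.34 with vehicle. HDACI arrays 2 and 4 were the lowest of the 8, and the other 2 lay among the vehicle arrays. The means were -0.51 ± 0.28 and -0.31 ± 0.10 (SD, n = 4), which differed by -0.21, less than the SD of the HDACI arrays, and by -0.09 without HDACI array 2.

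HDACI array 2 was the lowest of the 8 arrays in 5 of the 22 Hox genes, where it was the lowest in 19.2% of all genes. Among the 6 posterior genes above the reference it was the lowest in 4. On that array Hoxd10 was 2.15-fold, Hoxc12 2.05-fold, Hoxa11 1.52-fold and Hoxd9 1.29-fold below the vehicle mean. Hoxc12 stood at 6.37 there, below the olfactory reference of 6.93, so that its fold reaches into dim signal. Vehicle array 2 was the lowest in 10 of the 22, 5 of them among the 9 middle genes, and in 15.4% of all genes. The highest array was HDACI array 4 in 8 of the 22 and in 9.15% of all genes, and vehicle array 4 in 5 of the 22 and in 18.8% of all genes. Markers of other cell types moved with HDACI array 2: the mean of 12 measured markers of leptomeningeal fibroblasts, the cells of the coverings of the cord, was 9.60 on it and 8.68 to 9.26 on the other arrays, and the mean of 17 dorsal horn neuron markers was 9.80 on it and 9.88 to 10.14 on the others. The endothelial list was also highest on it (9.39, against 9.06 to 9.22), as were those of microglia (10.15, against 9.75 to 10.10), oligodendrocytes (12.14, against 11.97 to 12.11) and skeletal muscle and bone (7.40, against 7.26 to 7.35). The mean of 8 motor neuron markers was 8.30 to 8.70 with HDACI and 8.47 to 9.42 with vehicle, with HDACI array 2 at 8.70. Not all of the 8 need be particular to motor neurons. Aldh1a2, 1 of them and also counted with the retinoic acid pathway below, was highest on HDACI array 2 (9.05, against 7.48 to 8.48). Fibroblast markers below the olfactory reference were 1 of 12, and no marker of either neuron list was below it. Their part in the Hoxd10 difference was not tested.

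**Figure D5:**
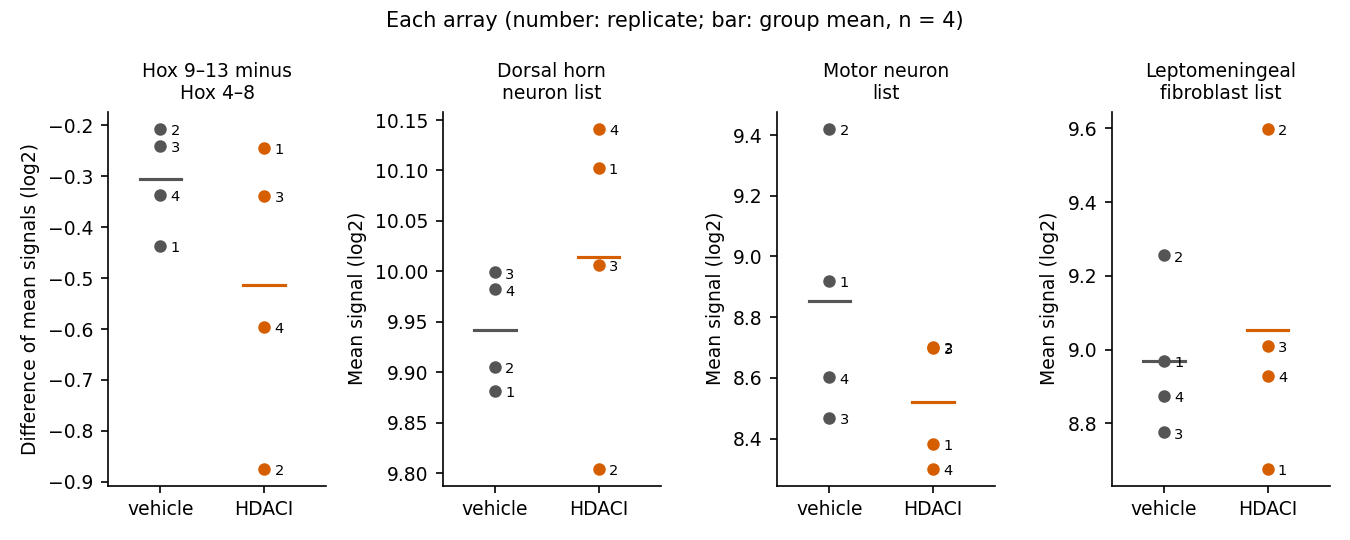
From left to right, the posterior minus middle Hox difference and the mean signals of the dorsal horn neuron, motor neuron and leptomeningeal fibroblast lists (vertical axes, log2) on each array, numbered by replicate, with group means as bars. HDACI array 2 is lowest in the first and second panels and highest in the fourth.

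Pairs of Hox genes were then compared across the 8 arrays, 17 in all. They were made of each gene above the reference with the next such gene of its cluster, between which genes that were not measured may lie. Hoxd10 with Hoxa11 and with Hoxc12 were added outside this rule. These 2 pairs join genes that were all lowest on HDACI array 2, and Hoxc12 was chosen after its values were seen. Their p values are therefore no independent support. Hoxb8 and Hoxb9 rose and fell together: Pearson's r was 0.94 (exact permutation p = 0.000521, adjusted 0.00885) and Spearman's rho 0.95 (exact permutation p = 0.00114, adjusted 0.0194), and r was 0.95 without HDACI array 4 and vehicle array 2, the 2 arrays farthest from the median. No other pair passed adjustment. Hoxd9 and Hoxd10 had r = 0.92 (exact permutation p = 0.0316, adjusted 0.107, and rho 0.62, p = 0.115). It fell to 0.43 without HDACI arrays 1 and 2, which were left out together. The relation thus rested on either or both of them, and HDACI array 2 was the lowest in both genes. Across clusters, Hoxd10 had r = 0.74 with Hoxa11 (exact permutation p = 0.0198, adjusted 0.107; rho 0.33, p = 0.428) and r = 0.73 with Hoxc12 (exact permutation p = 0.0298, adjusted 0.107; rho 0.60, p = 0.132). Without HDACI arrays 2 and 4, left out together, these became -0.39 and 0.18, so that each relation rested on either or both of those arrays. The pairs share tissue, array and group differences.

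The proteins that work with Hox factors showed no call. Of 7 measured cofactors of the TALE homeodomain class, which bind DNA together with Hox proteins, none passed and their median difference was -0.03. Pbx3 was the brightest of those named (11.03 ± 0.23 in vehicle cord) and varied widely with HDACI, at 11.41, 10.58, 10.38 and 11.52, with a difference of -0.06. Meis1 (-0.02) and Meis2 (-0.03) were close to 0, and the smallest p belonged to Pknox1 (0.16), Pbx4 (0.09) and Meis3 (-0.09). The 5 measured genes of Cdx factors and other axial regulators had a median of -0.07 and no call, with Gmnn, a protein that antagonises Hox activity, at -0.09. Cdx4, at 0.11, and Cdx2, at -0.07, encode factors known to switch Hox genes on in the embryo.

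Retinoic acid induces anterior Hox genes. Of 15 measured genes of its pathway 1 was called higher (2.79% of all genes were), Cyp26b1, which degrades retinoic acid: 7.24 ± 0.16 with vehicle and 7.52 ± 0.08 with HDACI, a difference of 0.28 (SE 0.08; unadjusted p = 0.00533 and adjusted p = 0.61, limma; exact permutation p = 0.0571). The median of the list was 0.02. The receptor Rara differed by 0.15 and the synthesising enzyme Aldh1a2 by 0.41, and neither passed.

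Of 28 measured genes of the Polycomb complexes, 2 were called higher and 1 lower, beside 2.79% and 4.96% of all genes, and the median was 0.01. Scmh1, a subunit of the first Polycomb complex, was at 9.32, 9.30, 9.33 and 9.37 with HDACI and at 9.14, 9.26, 9.20 and 9.18 with vehicle. Its groups did not overlap, as in 1.42% of all genes in this direction. The difference was 0.13 (SE 0.04), with unadjusted p = 0.00899 and adjusted p = 0.61 by limma and p = 0.0286 by the exact permutation test. Rybp, a subunit of variant forms of that complex, was higher by 0.17, and Bmi1, a core subunit, was lower, at -0.13, both at adjusted p of 0.637 and 0.64 by limma. Ezh2, the methyltransferase of the second complex, differed by -0.02 and Cbx7, a reader of its mark, by 0.06. Of 11 measured genes of Trithorax complexes, H3K27 demethylases and insulators, 2 were called lower (4.96% of all genes were) and none higher, with a median of -0.01. These were Rbbp5 and Ash2l, both core subunits of the H3K4 methyltransferase complexes, each at -0.10, and the groups of Ash2l did not overlap, as in 3.6% of all genes in this direction (exact permutation p = 0.0286). Wdr5, of the same core, differed by -0.07, the demethylase Kdm6b by 0.04 and the insulator protein Ctcf by 0.01, and none of these was called. Kmt2a was not analysed here, nor were 6 microRNAs of the Hox clusters.

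The brain transcription factors, whose silence in cord was not tested, had no call among 11 (median -0.03), with Dmbx1 at -0.08, Neurod6 at 0.11 and Nkx2-1 at -0.07. Of 17 dorsal horn neuron markers 1 was called higher (2.79% of all genes were), Grp, a peptide of itch circuits, at 0.20 (median 0.05), with Sst at 0.19 and Zic1 at 0.18. Above 0 were 13 of the 17 (42.1% of all genes were). Below 0 were Slc6a5 (-0.07), Slc17a6 (-0.07), Gad2 (-0.07) and Gad1 (-0.05). Of 8 motor neuron markers 2 were called lower (4.96% of all genes were), Slc5a7 (-0.75), the choline transporter, and Isl1 (-0.23), and the median was -0.22. Slc18a3, the vesicular acetylcholine transporter, was at -1.07, and 3 of the 8 differed upward: Aldh1a2 (0.41), Foxp1 (0.10) and Lhx1 (0.03). Without vehicle array 2 Slc5a7 stood at -0.44, Isl1 at -0.17 and Slc18a3 at -0.63, none of these called, and Foxp1 was called higher, at 0.15; this array was left out here after its values were seen. Of 9 sensory neuron markers of the dorsal root ganglion none was called (median -0.03), with Nefh at -0.23, Calca at -1.65 and Mrgprd at -0.10. Calca spread widely, at 9.05 ± 1.97 with vehicle and 7.40 ± 1.44 with HDACI (SD, n = 4). Above 0 were 3 of the 9, Trpv1 (0.08), P2rx3 (0.02) and Avil (0.02). None of 12 leptomeningeal markers was called (median 0.14), with Igf2 at 0.47, Prrx1 at 0.16 and Slc6a13 at 0.24; 8 of the 12 differed upward and 4 downward, the latter being Dcn (-0.36), Lum (-0.09), Tbx18 (-0.07) and Crabp2 (-0.05).

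Among glia and vessels, none of 7 oligodendrocyte markers was called (median 0.03; Mbp 0.05, Mag 0.05, Mog -0.04), none of 8 astrocyte markers (median 0.05; Gja1 0.13, Gfap 0.16, Slc1a3 -0.08), and none of 7 endothelial markers (median 0.09; Tek 0.20, Kdr 0.09, Cdh5 0.13). Of 7 microglia markers 1 was called higher (2.79% of all genes were), Cd68, a lysosomal protein, at 0.30 (median 0.09), with Tmem119 at -0.19 and Cx3cr1 at 0.11. None of 7 ependymal markers was called (median 0.01; Dnah11 -0.15, Spag6 0.04, Ccdc39 0.03). Of 12 genes of skeletal muscle and bone, tissues that lie beside the cord, none was called (median 0.04; Ibsp 0.14, Mb -0.09, Bglap 0.09).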

How the data were processed

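Log2 signals of 8 arrays of dorsal ipsilateral lumbar cord, 4 HDACI and 4 vehicle, were used as deposited: the authors ran oligo in R with RMA (background correction, quantile normalization, a summary per probe set), in versions not given in the sources used here. RMA leaves dim probe sets with a floor of background signal and shrinks their differences. The authors annotated probe sets with Ensembl v70, and symbols here came from the platform annotation: of 29214 probe sets 15310 had 1 symbol, 323 several and 13581 were not listed. Probe sets that shared 1 symbol were averaged, giving 14506 genes, none filtered out. All 22 Hox symbols equalled the RefSeq GRCr8 symbols, and promoter sequences came from RefSeq GRCr8.

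HDACI was compared with vehicle over all genes in R 4.3.3 by limma 3.58.1 (linear fit with moderated variances, two-sided, no block), with Benjamini-Hochberg adjustment over all genes, and for single genes with an exact permutation test over 70 assignments (smallest p 0.0286). Calls were made at an unadjusted p under 0.05, with 0.01, the study's threshold, and an adjusted p under 0.05 beside it. On simulated data of 4 against 4 arrays with 14506 genes, 98% of genes changed by 0.5 and 99% of those changed by 1 (log2) passed an unadjusted 0.05, as did 5.44% of unchanged genes. Noise was drawn for each gene alone, without shifts shared by genes of an array. These shares are averages over genes, most of them steadier than Hoxd10 (SD within groups 0.33, 98.6th percentile), and are not rates for such wide genes. Relations and figures used Python 3.11.15, numpy 2.4.6, pandas 2.3.3, scipy 1.17.1 and matplotlib 3.10.9.

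The Hox genes and the other lists were chosen with earlier results of these data known. Every measured Hox gene was named. Per-array values were given for the brightest gene of each cluster, for genes numbered 8 to 11 above the olfactory reference, and for the 8 with the smallest p. Up to 3 members with the smallest p were named of each other list, and Pbx3, Meis1, Meis2, Ezh2, Bmi1, Kmt2a, Kdm6b, Cbx7 and Ctcf always, and an item withheld from the text is not reported here. Same-numbered arrays of the groups had deviations correlated at -0.27, 0.36, 0.04 and 0.06, so the numbers were not taken as pairs. The labels give no scan date or other batch. The number of arrays limits the precision, and a missed threshold does not show equality. Dorsal root ganglion arrays were not analysed here.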

Additional observations from a re-analysis of the deposited data

Results flagged for a closer look

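Among 46 groups of 4 arrays examined for a single array apart, 1 was found, where chance alone gives about 1 in 20: Hoxc9 in the vehicle group, where array 4 stood at 9.29 and the other 3 between 9.10 and 9.12. The gap made up 0.886 of the whole range of the group, above Dixon's 95% critical value for 4 arrays.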

How the results depend on the processing

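The count of 4 Hox genes called became 0 at an unadjusted p under 0.01, 0 at an adjusted p under 0.05 and 1, Hoxa4, with the exact permutation test in place of limma. Leaving out each array in turn gave 1 to 4 calls, with 2 without HDACI array 4, 2 without vehicle array 2 and 1 without vehicle array 3. Hoxa4 was called in all 8 of these fits, Hoxb7 in 5, Hoxd3 in 4 and Hoxd10 in 3. The same 4 genes were called with the replicate number as a block, where the posterior minus middle difference was -0.21 and the median difference 0.04; the numbers share no stated animal or day. The median difference of the Hox genes ran from 0.01 to 0.07 and the posterior minus middle difference from -0.30 to -0.09 with arrays left out in turn. The number of Hox genes above the olfactory reference was 18 at its 99th percentile, 22 at its 75th and 18 on every vehicle array. No result changed direction under the alternatives run, which were median centring, a further quantile normalization, trended and robust moderation, a filter at the median signal, other choices of probe set and symbol, and leaving out arrays. Hoxd10 further lost its call with median centring, the further quantile normalization, trended and robust moderation and the fit over all probe sets. With 4 arrays a group, 1 array decided whether Hoxd10, Hoxb7 and Hoxd3 passed.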

Other observations

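The 5 measured protein-coding genes on each side of each Hox cluster, chosen after values of these data were seen, were also compared. Of these 40 genes 1 was called higher with HDACI and 4 lower at an unadjusted p under 0.05 (limma), beside 2.79% and 4.96% of all genes. At the Hoxd cluster 3 of 10 were lower, each with no overlap between groups (3.6% of all genes lay apart in this direction), for which the exact permutation test gives 0.0286, the smallest p it can. Lnpk, an endoplasmic reticulum protein, lay on the Hoxd13 side and differed by -0.17 (SE 0.05). Mtx2, a mitochondrial outer membrane protein, and Hnrnpa3, an RNA-binding protein, lay on the Hoxd1 side and differed by -0.13 each (SE 0.04). Evx2, a homeobox gene beside Hoxd13, differed by -0.12 and was not called. The median of these 10 was -0.10, and 8 of them were below 0. The flanks of Hoxa had no call (median -0.04), those of Hoxb had Nfe2l1 lower, at -0.13 (median -0.01), and those of Hoxc had Npff, a neuropeptide gene, higher by 0.12 (median 0.01). Lack of overlap was not particular to the Hoxd flanks. The groups of Nfe2l1 lay apart too, as did those of Cbx5 on the Hoxc flank, lower by -0.07 and not called. Npff lay apart upward, as did 1.42% of all genes. None passed adjustment (smallest adjusted p = 0.61), and whether the flanks of 1 cluster differ from those of another was not tested.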
